A study of Danio rerio with 4 samples.

Results

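Matrix metalloproteinases are zinc-dependent endopeptidases that cut collagens and other proteins of the extracellular matrix. Most are made as inactive precursors and are secreted, and a membrane-type subgroup stays anchored at the cell surface. The tissue inhibitors of metalloproteinases (TIMPs) are small secreted proteins that block the active site. In mammalian cells TIMP2 also bridges the membrane-type enzyme MMP14 and the precursor of MMP2, so that MMP14 can activate MMP2. In zebrafish, mmp9 and mmp13a are known for their expression in leukocytes and at wounded or regenerating fin tissue.

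The genes described here are the rows of the deposited table with the symbols mmp2, mmp9, mmp13a, mmp13b, mmp14a, mmp14b, mmp15b, timp2a, timp2b and timp4.2. Of these 10 symbols 8 had a row among the 19924 features of the table, made of 6 metalloproteinases and 2 inhibitors, and mmp13b and timp4.2 were not analysed here. All 8 passed the filter on low counts. The deposited protein domain annotation of the 6 enzyme genes names the matrixin catalytic domain, and that of timp2a and timp2b names the TIMP domain, as their symbols say.

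RNA came from the tail tissue of zebrafish (Danio rerio) at 3 days post fertilization, and the heads served for genotyping. All embryos came from 1 pair of parents heterozygous for cpa1 and cpa5, which code for carboxypeptidases that digest protein. The 2 control libraries, titled sibling, carry the genotype label WT (whether they are heterozygous at either gene is not stated), and the 2 other libraries are double knockouts of cpa1 and cpa5. The labels number the libraries of both groups 3 and 4 without saying what a number stands for, and where 2 values of a group are given, number 3 comes first. They also leave out how many fish went into a library, so the p-values reflect spread from library to library that may be technical.

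Total counts ranged from 24769258 to 35343524 per library. The targeted gene cpa5 had 2079 and 397 counts in siblings but 19 and 15 in knockouts, and cpa1 was not analysed here. edgeR did not call cpa5 (log2 fold change -6.34 ± 1.17, adjusted p = 1), whereas DESeq2 did (adjusted p = 1.85e-10), so a gene that edgeR leaves uncalled between genotypes may still differ. Of 14 markers of tail and trunk tissue all were measured, including the skeletal muscle genes, the fin fold genes and the posterior hox genes, with a summed level of 34750 to 38450 CPM (counts relative to the TMM-scaled library size). Of 13 head and eye markers 4 were measured, with a summed level of 4.83 to 6.64 CPM. Between replicate numbers 4 and 3, with genotype as a term, edgeR's quasi-likelihood test called 15.1% of all features at an adjusted p below 0.05, and between genotypes, in a fit without a term for the number, it called 0%. The shares come from fits of unlike form and are not set against each other. The fit of the number leaves 1 residual degree of freedom. On simulated data such edgeR fits made more false calls than the threshold allows. Calls between numbers are therefore uncertain, and not only those with an adjusted p close to 0.05. Each gene is given in every library, and differences between genotypes are also given between libraries of the same number.

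Per unit of feature length, the gelatinase gene mmp2 was the most abundant of the 8 genes in all 4 libraries. Levels of different genes are set side by side on the deposited FPKM scale, which corrects for feature length. mmp2 was at 63.5 and 52.8 FPKM in siblings and at 73.1 and 58.4 FPKM in knockouts. It held 46.8% to 52.1% of the summed FPKM of the 8 genes. The membrane-type enzyme gene mmp14a came next in siblings, at 18.3 ± 0.54 FPKM (SD, n = 2), followed by the gelatinase gene mmp9 at 11.5 ± 4.04 FPKM. In siblings the ranges of mmp2, mmp14a and mmp9 did not overlap with each other or with the genes below them. timp2b (7.4 ± 0.99 FPKM) and timp2a (6.99 ± 0.41 FPKM) overlapped with each other, and mmp14b (6.05 ± 0.13 FPKM), the collagenase gene mmp13a (3.62 ± 0.49 FPKM) and the membrane-type gene mmp15b (2.44 ± 0.73 FPKM) each lay below the gene before.

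In double knockouts mmp2 stayed apart at the top and mmp15b apart at the bottom, whereas each of the other neighbours overlapped. mmp9 reached from 11.3 to 23.4 FPKM there and crossed the range of mmp14a (19.0 to 20.1 FPKM). mmp13a, at 8.36 and 4.86 FPKM, overlapped with mmp14b and timp2a. The summed FPKM of the 6 enzyme genes was 8.09 and 5.96 times that of the 2 inhibitor genes in siblings, and 6.23 and 6.94 times in knockouts, so the groups overlapped in this ratio.

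**Figure D1:**
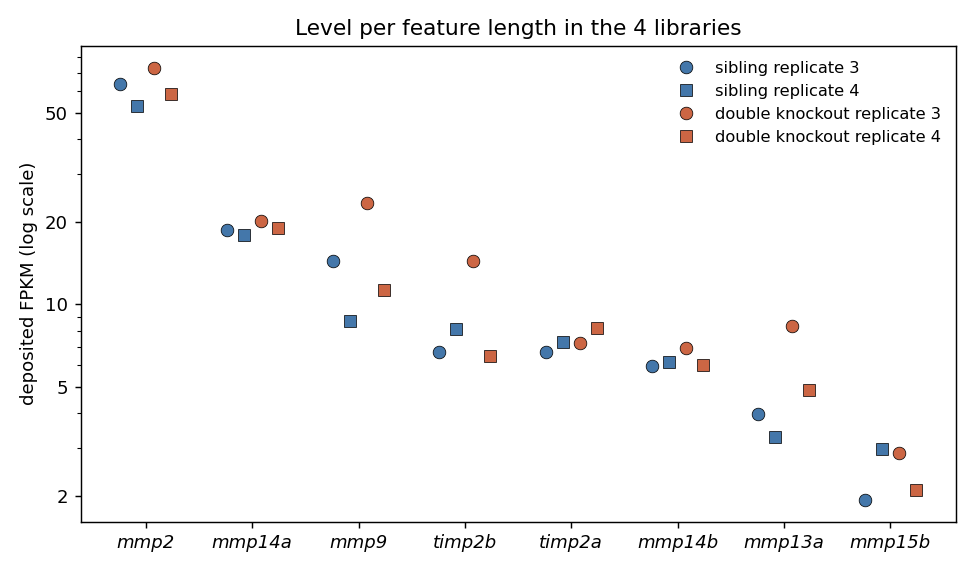
Deposited FPKM (log scale) of the 8 genes, ordered by their mean over the 4 libraries, with 1 point per library (blue siblings, orange double knockouts, circles replicate 3, squares replicate 4). mmp2 lies above all other genes at 52.8 to 73.1 FPKM, and mmp9, timp2b and mmp13a show the wide spread that knockout replicate 3 brings.

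Between double knockouts and siblings, no gene of the family passed the adjusted test. edgeR called 0 of the 8 genes and 0% of all features at an adjusted p below 0.05. At an unadjusted p below 0.05 it listed 1 of the 8, mmp13a, against 0.502% of all features, and DESeq2 also listed 1 (0.567% of all features) and called 0 after adjustment (0.0954% of all features). The log2 fold change of knockout over sibling was above 0 in 7 of the 8 genes, with a median of 0.12 beside -0.01 over all features. This median was 0.037 without knockout replicate 3 and 0.22 without sibling replicate 4. Both knockout libraries lay above both sibling libraries in 2 genes, mmp13a and mmp14a, and over all features this held for 8.72%. Within both replicate numbers the knockout lay above its sibling in 5 genes (mmp2, mmp9, mmp13a, mmp14a and timp2a), beside 24.5% of all features. The largest fitted difference was that of mmp13a, followed by mmp9 and timp2b. In bulk tissue, more cells of a type and more RNA per cell cannot be told apart.

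mmp13a (ENSDARG00000012395) codes for a secreted collagenase. It had 264 and 290 counts in siblings and 514 and 468 counts in knockouts, or 10.3 and 9.2 CPM against 19.8 and 13.6 CPM. Both knockout libraries were higher than both siblings, and knockout replicate 3 was the highest. The group means were 9.75 ± 0.77 and 16.7 ± 4.43 CPM (SD, n = 2), with a log2 fold change of 0.78 ± 0.26 (standard error) that did not pass (edgeR adjusted p = 1). The authors' deposited table gives mmp13a a log2 fold change of 0.78, an unadjusted p of 0.0236, an adjusted p of 1.00 and the label up, and it labels none of the 7 other genes as changed. Between libraries of the same number the log2 difference was 0.95 for number 3 (95% counting interval 0.73 to 1.17, exact Clopper-Pearson) and 0.56 for number 4 (0.35 to 0.78). These intervals cover counting error only and not the spread between fish. Without knockout replicate 3 the fitted value was 0.48, a fit that sets 1 knockout library against both siblings.

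mmp9 (ENSDARG00000042816) codes for gelatinase B, which cuts denatured collagen and basement membrane collagen. Its counts were 1258 and 970 in siblings and 1941 and 1385 in knockouts. This was 49.05 and 30.8 CPM in siblings and 74.85 and 40.1 CPM in knockouts. The groups overlapped, because sibling replicate 3 lay above knockout replicate 4, but within each number the knockout was the higher library. The same-number log2 differences were 0.61 (counting interval 0.51 to 0.71) for number 3 and 0.38 (0.26 to 0.50) for number 4. The fitted log2 fold change was 0.53 ± 0.40 (edgeR adjusted p = 1). It was 0.01 without knockout replicate 3, 0.24 without sibling replicate 4, 0.90 without sibling replicate 3 and 0.92 without knockout replicate 4, and each of these fits has unequal replicate numbers in the groups.

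**Figure D2:**
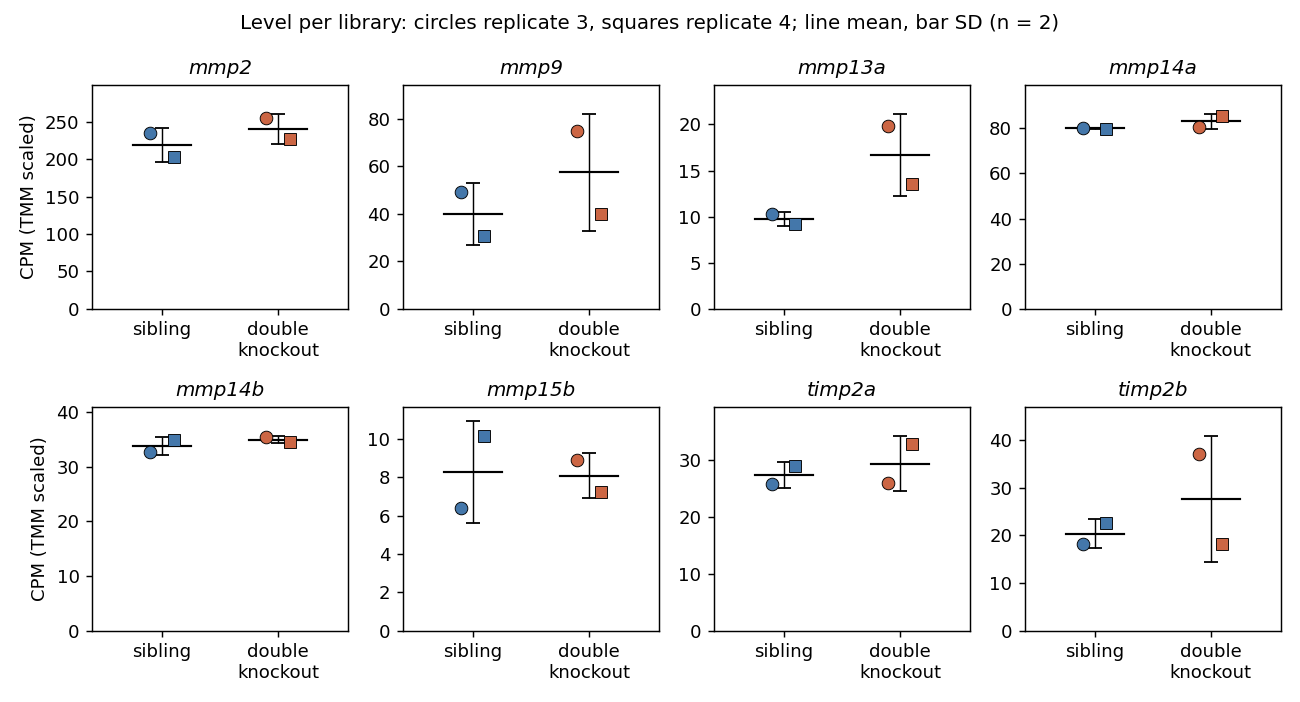
CPM (TMM scaled) of each gene in each library, with the group mean as a line and the SD as a bar (n = 2), circles for replicate 3 and squares for replicate 4. In mmp13a both knockout points (19.8 and 13.6 CPM) lie above both sibling points (10.3 and 9.2 CPM). The same holds for mmp14a by a small margin, and in the 6 other genes the points of the groups overlap.

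mmp2 (ENSDARG00000017676), the gene of gelatinase A, varied little. It was at 235 and 203 CPM in siblings and at 254 and 226 CPM in knockouts. The groups overlapped, and within both numbers the knockout was higher. The same-number log2 differences were 0.11 (counting interval 0.06 to 0.16) and 0.15 (0.11 to 0.20). The fitted log2 fold change of 0.13 ± 0.18 did not pass (edgeR adjusted p = 1). With 6038 to 7808 counts per library, mmp2 had the narrowest counting interval of the 8 genes.

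The membrane-type genes mmp14a and mmp14b were the steadiest of the family. mmp14a (ENSDARG00000002235), a zebrafish counterpart of the MMP2 activator MMP14, was at 80.1 and 79.7 CPM in siblings and at 80.75 and 85.3 CPM in knockouts. Both knockout libraries lay above both siblings, by a small margin, with a log2 fold change of 0.06 ± 0.15. mmp14b (ENSDARG00000008388), the second counterpart, was at 32.6 and 34.9 CPM in siblings and at 35.4 and 34.4 CPM in knockouts. Its groups overlapped, and its log2 fold change was 0.05 ± 0.15. Neither passed (edgeR adjusted p = 1). Per length, mmp14a was 2.91 to 3.16 times as abundant as mmp14b over the 4 libraries.

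An assembled model outside the named genes (MSTRG.36853.1) carries the same deposited protein description as mmp14b, matrix metalloproteinase-14 isoform X1. Its counts were 759 and 712 in siblings and 864 and 829 in knockouts. Its deposited level was 8.49 and 6.24 FPKM in siblings and 10.2 and 6.60 FPKM in knockouts. Unlike mmp14b, the model was thus lower in both replicate 4 libraries than in both replicate 3 libraries. By CPM this order held for 32.9% of all features. In each library the level of the model was above mmp14b, which was at 5.96 and 6.14 FPKM in siblings and 6.90 and 6.02 FPKM in knockouts. Related copies can share reads, and the counting rule for such reads is not stated in the labels. The level of mmp14b, its steadiness, its place in the order and its ratio to mmp14a are therefore uncertain.

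mmp15b (ENSDARG00000013072), another membrane-type enzyme gene, was the lowest of the 8 per unit of feature length. It had 164 and 320 counts in siblings and 231 and 250 counts in knockouts, or 6.39 and 10.2 CPM against 8.91 and 7.25 CPM. Both knockout libraries lay between the 2 siblings. Within number 3 the knockout was higher by 0.48 on the log2 scale (counting interval 0.18 to 0.78), and within number 4 it was lower, at -0.49 (-0.73 to -0.24). The fitted log2 fold change was -0.04 ± 0.30 (edgeR adjusted p = 1), and its sign turned with total-count scaling (0.0041).

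The inhibitor timp2a (ENSDARG00000061226) was at 25.65 and 28.9 CPM in siblings and at 25.9 and 32.75 CPM in knockouts. The groups overlapped. The same-number log2 differences were 0.01 (counting interval -0.14 to 0.17) and 0.18 (0.05 to 0.31), and the fitted value was 0.10 ± 0.20 (edgeR adjusted p = 1).

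Its paralogue timp2b (ENSDARG00000075261) moved in opposite directions within the replicate numbers. It had 468 and 709 counts in siblings and 959 and 630 counts in knockouts, which is 18.25 and 22.5 CPM against 37.0 and 18.3 CPM. Only knockout replicate 3 stood high, and knockout replicate 4 was level with sibling replicate 3. Within number 3 the log2 difference was 1.02 (counting interval 0.86 to 1.18), and within number 4 it was -0.30 (-0.46 to -0.14). The fitted log2 fold change of 0.44 ± 0.39 did not pass (edgeR adjusted p = 1) and was -0.16 without knockout replicate 3. The difference between the numbers was not tested, because each number holds 1 library per genotype. Per length, timp2b was 1.00, 1.11 and 0.79 times as abundant as timp2a in sibling replicate 3, sibling replicate 4 and knockout replicate 4, and 2.00 times in knockout replicate 3.

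**Figure D3:**
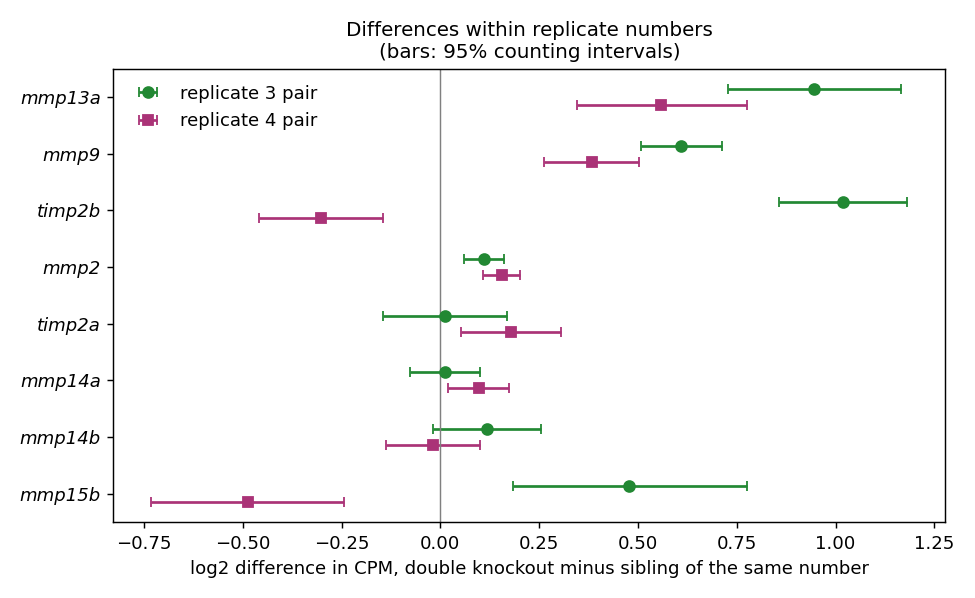
Log2 difference in CPM between the double knockout and the sibling library of the same replicate number, with 95% counting intervals (green circles number 3, purple squares number 4). mmp13a, mmp9 and mmp2 lie above 0 for both numbers, whereas timp2b (1.02 and -0.30) and mmp15b (0.48 and -0.49) lie on opposite sides.

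Between replicate numbers, mmp9 fell from number 3 to number 4 in both genotypes and was the 1 gene of the 8 that edgeR called, beside 15.1% of all features. Its log2 difference of number 4 over 3 was -0.79 ± 0.11 (edgeR adjusted p = 0.018, lower in 2 of 2 genotypes), and DESeq2 called it at an adjusted p of 4.69e-04, beside 10.6% of all features. The difference was -0.67 in siblings and -0.90 in knockouts. Without the term for genotype edgeR gave -0.80 and the call ended (adjusted p = 0.0594). With 1 library left out, in fits that also lack that term, it ended without sibling replicate 4 (-0.63), knockout replicate 3 (-0.47) and knockout replicate 4 (-1.02), and held without sibling replicate 3 (-1.08). mmp9 and mmp2 (-0.19 ± 0.09, adjusted p = 0.206) were lower in both replicate 4 libraries than in both replicate 3 libraries, as were 32.9% of all features. timp2a was higher in both (0.26 ± 0.10, adjusted p = 0.154), as were 32.8% of all features. mmp13a was at -0.36 ± 0.15 (adjusted p = 0.157) and timp2b at -0.37 ± 0.32 (adjusted p = 0.46). For mmp13a the drop lay mostly within the knockouts (-0.55, against -0.16 in siblings), whereas timp2b fell in knockouts (-1.02) and rose in siblings (0.30). The median over the 8 genes was -0.08, beside 0.01 over all features.

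**Figure D4:**
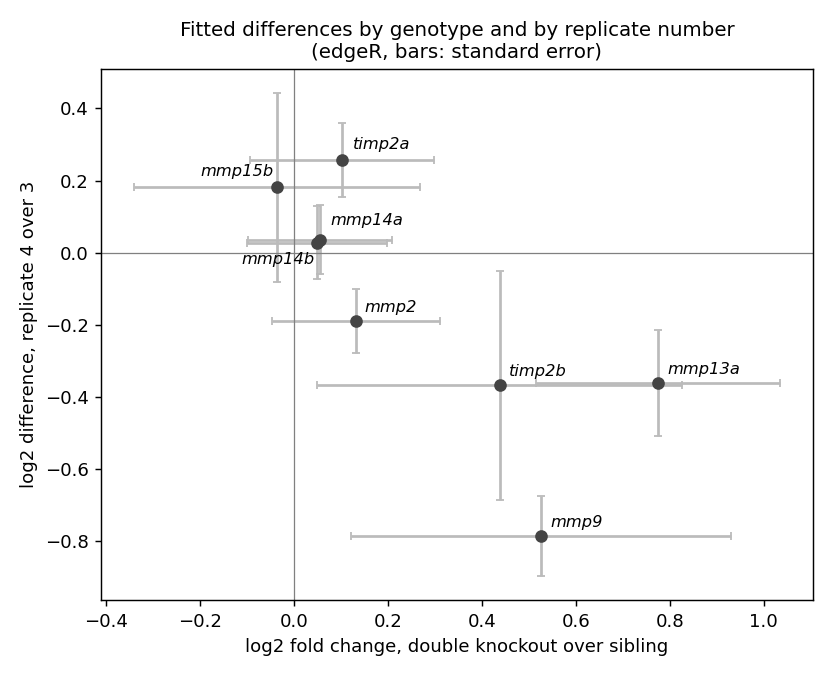
Fitted log2 fold change of double knockout over sibling (x axis) against the fitted log2 difference of replicate number 4 over 3 (y axis) for the 8 genes, with standard errors from edgeR. mmp9 lies lowest at -0.79, mmp13a lies farthest right at 0.78, and mmp14a and mmp14b lie near 0 on both axes.

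Other metalloproteinase genes were measured in 12 of 19 listed symbols. Between genotypes 0 were called, 4 lay above and 8 below 0, and the median was -0.06. The gene mmp17b, named after its values were seen, was the 1 listed at an unadjusted edgeR p below 0.05, beside 0.502% of all features. Its level was 7.29 and 6.22 CPM in siblings and 4.05 and 4.78 CPM in knockouts. Between replicate numbers 1 of the 12 was called, beside 15.1% of all features. This gene, mmp30, was at 110 and 25.7 CPM in siblings and 104 and 28.1 CPM in knockouts. Its log2 difference of number 4 over 3 was -1.99 ± 0.11 (edgeR adjusted p = 0.00335). In the order of protein-coding genes of the RefSeq assembly GRCz12tu, mmp30 lies beside mmp13a with 1 gene between them, and mmp13a was not called between numbers. mmp11a was at 7.68 and 3.65 CPM in siblings and 8.02 and 6.11 CPM in knockouts. mmp20b was read at 0 counts in knockout replicate 3 and at 12 to 53 in the other libraries.

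Of 4 other inhibitors 3 were measured and 0 were called in either comparison (median 0.03 between genotypes and -0.53 between numbers). The membrane-anchored inhibitor gene reck was as steady as the mmp14 genes, at 47.9 to 51.9 CPM in all libraries. timp4.1 was at 1.4 to 2.39 CPM and timp4.3 at 0.92 to 4.02 CPM. Of 30 ADAM and ADAMTS genes, the related membrane and secreted metalloproteases, 0 were called between genotypes (median 0.03, 19 above and 11 below 0). Between replicate numbers 2 were called lower and 0 higher in number 4, adam8b (-1.07 ± 0.19, adjusted p = 0.0313) and adamts9 (-0.73 ± 0.17, adjusted p = 0.0495), beside 8.16% of all features called lower. adam17b, coding for a sheddase, was at -0.58 ± 0.14 (adjusted p = 0.0564).

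Proteases that activate metalloproteinase precursors were measured in 9 of 10 symbols. Between genotypes 0 were called (2 above and 7 below 0, median -0.07). The plasminogen gene plg, named after its values were seen, was the 1 listed at an unadjusted edgeR p below 0.05, beside 0.502% of all features. Its level was 133 and 129 CPM in siblings and 55.6 and 91.3 CPM in knockouts. Between replicate numbers 2 were called higher and 0 lower in number 4, the furin genes furinb (0.79 ± 0.13, edgeR adjusted p = 0.0241) and furina (0.44 ± 0.10, edgeR adjusted p = 0.0495), beside 6.99% of all features called higher. pcsk7 was at 0.48 ± 0.14 (adjusted p = 0.0784).

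Genes of AP-1 transcription factors and of cytokines, of which many are known inducers of MMP9 and MMP13 in mammalian cells, were measured in 15 of 25 symbols. Between replicate numbers 7 were called lower and 0 higher in number 4, with a median of -0.68, beside 8.16% of all features called lower. All 7 were AP-1 genes, and no cytokine gene was called. Of the cytokine genes, il1b, csf3a and tgfb1a were also lower in both replicate 4 libraries, and tnfb and tgfb1b overlapped between numbers. Counts of il1b, csf3a and tnfb were low, at 16 to 51 per library. These cytokine genes were named after their values were seen. The AP-1 gene jun, named after its values were seen, was not called. It was at 94.2 and 93.8 CPM in siblings and 86.65 and 87.8 CPM in knockouts. fosl1a, coding for an AP-1 subunit, was at 62.3 and 23.1 CPM in siblings and 47.9 and 17.6 CPM in knockouts (-1.44 ± 0.10, edgeR adjusted p = 0.00506). jund was at -1.22 ± 0.11 (edgeR adjusted p = 0.00861) and jdp2b, whose mammalian counterpart is known as a repressor of AP-1, at -0.98 ± 0.13 (edgeR adjusted p = 0.0169). Between genotypes 0 were called, with 6 above and 9 below 0 and a median of -0.11. The part of AP-1 and cytokine genes in the levels of mmp9 and mmp13a was not tested.

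Matrix substrates were measured in 27 of 29 symbols, with 0 called between genotypes (10 above and 17 below 0, median -0.04). Between numbers 4 were called higher and 1 lower in number 4 (median 0.18), beside 6.99% and 8.16% of all features. Among those called higher were the aggrecan gene acana (2.02 ± 0.15, edgeR adjusted p = 0.00584), the elastin gene elnb (3.49 ± 0.53, edgeR adjusted p = 0.0211) and the type II collagen gene col2a1b (0.45 ± 0.09, edgeR adjusted p = 0.0384). Counts of elnb were low, at 15 and 107 in siblings and 6 and 212 in knockouts. The 1 called lower was col4a1, named after its values were seen (-0.43 ± 0.09, edgeR adjusted p = 0.0459).

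**Figure D5:**
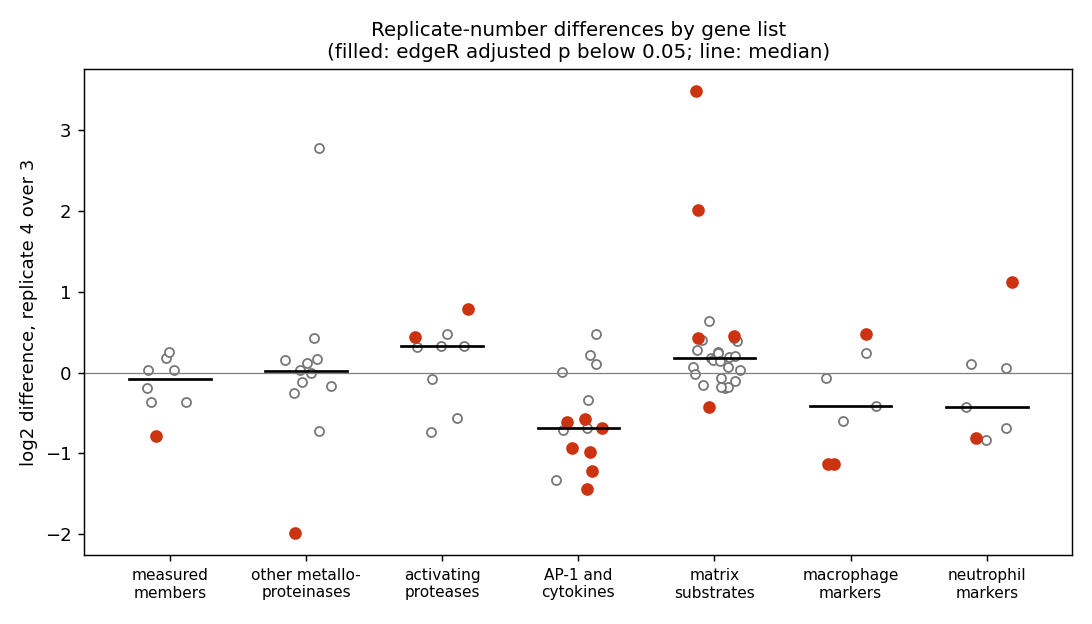
Log2 difference of replicate number 4 over 3 for each measured gene of 7 lists, with filled points for an edgeR adjusted p below 0.05 and a line at each list's median. Of the 8 measured members mmp9 alone is filled, and in the list of AP-1 and cytokine genes 7 of 15 are filled, all below 0.

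Leukocytes are known to express mmp9 and mmp13a. No marker of any list was called between genotypes, beside 0% of all features. Of 13 macrophage markers 7 were measured, with a summed level of 96.9 and 85.8 CPM in siblings and 102 and 86.4 CPM in knockouts. Of these, mpeg1.2 was called higher in number 4 (0.48 ± 0.10) and grn1 and lgals3bpb were called lower (-1.14 ± 0.26 and -1.13 ± 0.12, adjusted p = 0.0485 and 0.0105 by edgeR). Over all features 6.99% were called higher and 8.16% lower in number 4. Of 11 neutrophil markers 7 were measured, with a summed level of 108 and 114 CPM in siblings and 132 and 116 CPM in knockouts. The neutrophil peroxidase gene mpx was named after its values were seen. It was at 37.7 and 43.7 CPM in siblings and 46.5 and 46.9 CPM in knockouts (0.20 on the log2 scale, edgeR adjusted p = 1). Of the measured neutrophil markers, il6r was called higher and srgn lower in number 4, beside the same shares of all features. The summed macrophage markers were thus higher in both replicate 3 libraries, as mmp9 was. Single macrophage markers were mixed. Lower in both replicate 4 libraries than in both replicate 3 libraries were grn1, lgals3bpb, mpeg1.1 and marco. Higher in both were mpeg1.2 and mfap4, and csf1ra overlapped between numbers. Of these, mpeg1.1, marco, mfap4 and csf1ra were named after their values were seen. Over all features 32.9% were lower and 32.8% higher in both replicate 4 libraries. The summed neutrophil markers were higher in both knockout libraries, as mmp13a was. Within number 4 the margin was small, at 114 CPM in the sibling and 116 CPM in the knockout. There mmp13a was at 9.2 and 13.6 CPM. Among the neutrophil markers ncf1 and il6r were lower in the knockout within both numbers. No measured marker of either list was at 0 in any library. Every feature of the table reached at least 26 counts in some library, so this says little about whether the cells were present. The part of these cells in the levels of mmp9 and mmp13a was not tested.

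Epidermis markers were measured in 10 of 10 symbols and 7 were called higher and 0 lower in number 4 (median 0.66), beside 6.99% of all features called higher and 8.16% called lower, with epcam at 1.12 ± 0.13 and the keratin gene krt5 at 0.72 ± 0.10. Osteoblast and cartilage markers were measured in 9 of 13 symbols and 4 were called higher and 0 lower (median 0.65), beside the same shares of all features, with col10a1a at 5.81 and 67.5 CPM in siblings and 0.424 and 57.6 CPM in knockouts. Markers of fibroblasts and fin mesenchyme (12 of 12) and of endothelium (8 of 8) had 0 called, with medians of 0.13 and 0.27. mmp9 was lower in number 4, where the called markers of epidermis and of bone and cartilage were higher. Other markers of these lists were not called, and the part of these tissues in that difference was not tested.

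By distance between the centred log2 CPM values of the 4 libraries, the profiles most like mmp9 among 12227 other named genes with a mean of at least 5 CPM were BX537263.3 (distance 0.11), arap1a (0.148) and BX537263.5 (0.15), with 10 genes within 0.2. BX537263.3 was at 28.3 and 19.8 CPM in siblings and 46.1 and 24.5 CPM in knockouts. For mmp13a they were asb15a (0.215), zgc:174268 (0.28) and nrarpb (0.298), and 0 genes lay within 0.2. asb15a was at 7.41 and 5.87 CPM in siblings and 11.6 and 8.49 CPM in knockouts. With 4 libraries, these distances describe the libraries and give no test.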

How the data were processed

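The series holds 4 libraries of zebrafish tail RNA. Per the submitters' processing notes, HISAT2 2.2.1 and DESeq2 1.26.0 were used with GRCz11. The sources used here name no counter, annotation release or strand setting. The table holds raw read counts and FPKM for each library, per the file headers. The authors' own log2 fold changes and p-values, adjusted and unadjusted, were deposited beside them.

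Counts were analysed as deposited with edgeR 4.0.16 in R 4.3.3 (quasi-likelihood test, TMM normalization, filterByExpr, which removed 0 features) and Benjamini-Hochberg adjustment over all features, with a threshold of 0.05. Genotype was fitted with no covariate, and the replicate number with genotype as a term, which leaves 1 residual degree of freedom. On simulated data the edgeR and limma-voom fits with 1 residual degree of freedom made more false calls than the threshold allows. The edgeR fit of genotype alone recovered few small changes. CPM are TMM-scaled counts. Standard errors follow from the fold change and the quasi-likelihood F statistic. Same-number differences have exact 95% binomial intervals. Alternatives were DESeq2 1.42.0, limma 3.58.1 (voom, and log2(FPKM + 1) or log2(FPKM + 0.1)), other scalings, filters and feature sets, the replicate block and each library left out.

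The members and gene lists were chosen with earlier results of these data known. Named were the 8 genes, up to 3 genes per list with the smallest p in either fit, and the 3 nearest profiles of mmp9 and mmp13a; others are said to be named after their values were seen. The planned search of protein and promoter sequences was not run. Gene positions are left out, since the table of positions used for gene order is of a different build (GRCz12tu).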

Additional observations from a re-analysis of the deposited data

How the results depend on the processing

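Between genotypes edgeR called 0 of the 8 genes under every alternative run. Over all features it called 0, against 19 by DESeq2 and 3 with the replicate block, and 0 without any 1 library. Same-numbered libraries deviated together (correlation of deviations from the group means across features 0.62), but the labels give the numbers no meaning, so the pairing rests on the data alone. With the replicate block mmp13a was at 0.75 ± 0.15 (edgeR adjusted p = 0.805) and mmp9 at 0.50 ± 0.11 (edgeR adjusted p = 0.842), and 2 of the 8 genes had an unadjusted p below 0.05, beside 4.41% of all features. The log2 fold change of mmp15b turned to 0.0041 with total counts and to 0.024 and 0.036 with log2(FPKM + 1) and log2(FPKM + 0.1). Leaving out 1 library gave -0.33 to 0.34 for mmp15b, -0.16 to 0.87 for timp2b and -0.067 to 0.26 for timp2a, and a median over the 8 genes of 0.037 to 0.22; the cause was not tested.

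Between replicate numbers, leaving out 1 library and the genotype term gave 4867, 880, 4782 and 1310 called features (without the sibling and then the knockout replicates 3 and 4), 0 to 3 called members and a median of -0.15 to 0.12. The genotype term alone left out gave 0 called members. In those fits mmp13a ranged from -0.80 to 0.15, timp2b from -0.86 to 0.16, mmp15b from -0.084 to 0.44 (-0.036 without sibling replicate 3), mmp14a from -0.018 to 0.08 and mmp14b from -0.031 to 0.086. With total counts mmp14a was at -0.031 and mmp14b at -0.0402; with log2(FPKM + 1) they were at -0.065 and -0.067, and with log2(FPKM + 0.1) at -0.068 and -0.076. The cause was not tested. At 164 to 320 counts, mmp15b had the widest counting intervals of the 8 genes (0.18 to 0.78 within number 3).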

Other observations

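A second assembled model, MSTRG.39380.1, carries the deposited description stromelysin-3, the name of the enzyme that mmp11a and mmp11b encode. It had 539 and 370 counts in siblings and 519 and 447 counts in knockouts. Its deposited level was 4.89 and 2.63 FPKM in siblings and 4.97 and 2.89 FPKM in knockouts. Both replicate 4 libraries were thus lower than both replicate 3 libraries. By CPM this order held for 32.9% of all features.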
